A study of Mus musculus with 8 samples.

Results

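The Nat8 family of the mouse holds 8 genes, Nat8 and Nat8f1 to Nat8f7, which encode small membrane-bound N-acetyltransferases of the endoplasmic reticulum. They were taken by symbol from the single-cell count matrix, which listed all 8 among 32285 genes, and were followed over the kidney cell types and between genotypes. The genes were chosen by their ko against wt differences in proximal tubule (PT) cells of these same mice, so the values of the 8 genes are given here as a description and without a test. Genes outside the family were tested, and the lists among them were also chosen with earlier results of these data known.

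Gene expression was measured in single cells with a droplet kit that reads transcript 3′ ends, in 1 pool of kidneys of male mouse embryos (lines bred on a C57BL/6 background by the study's text) at embryonic day 17.5 (E17.5) by the sample labels, while the study's text gives a later embryonic day for these kidneys. In 2 embryos, mice 1 and 2, both copies of Trim28 were deleted by Cre in the Six2-expressing nephron progenitor cells (NPCs) and thus in their descendants (Trim28Δ/Δ, the tags named ko; driver Tg(Six2-EGFP/cre)1Amc), and 2 embryos, mice 3 and 4, were Trim28f/f controls (the tags named wt), which carried the floxed gene on both copies. The stroma, vessels, blood cells and ureteric bud are not descendants of these progenitors, and the labels do not say whether the controls carried the cre transgene. Cells of each embryo bore their own membrane-anchored DNA tag, and each embryo is 1 replicate (n = 2 for each genotype). The 6 bulk samples of newborn kidneys that the series also lists were not analysed here.

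NAT8 is known for the last step of mercapturic acid formation, in which a foreign compound that was joined to glutathione and trimmed to its cysteine conjugate is N-acetylated and leaves the body in urine. The kidney is the main site of this step, and the enzyme is a typical product of the PT, where it lies in the endoplasmic reticulum. Nat8 and its closest relatives have also been described as lysine acetyltransferases of the endoplasmic reticulum lumen that draw on acetyl-CoA brought in by Slc33a1. For several of the other copies in the mouse, which lie side by side as the product of gene duplication, little is known.

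All 8 genes lay on the minus strand of chromosome 6, between chr6:85706727 and 85915687 of GRCm38 (GENCODE M21), a stretch of 208961 bp. In order of position they were Nat8f7, Nat8f3, Nat8f6, Nat8f5, Nat8, Nat8f2, Nat8f4 and Nat8f1. Nat8 itself spanned chr6:85830388-85832082, Nat8f5 chr6:85817218-85820972, and Nat8f6 chr6:85808024-85820954, so that Nat8f5 lay within reach of the longest transcript of Nat8f6 and shared 135 exonic bases with it on the same strand. Nat8f1 (chr6:85910154-85915687) overlapped the gene Tprkb on the other strand.

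RefSeq promoters (GRCm38.p6, 250 bases before to 50 after a start site) were found for all 8 genes, of which 2 had more than 1 start. The promoters of 6 genes are shown 5′ to 3′. Of these, 3 (Nat8f6, Nat8f5 and Nat8) belong to the members that were higher in Trim28Δ/Δ PT cells. Nat8f2 and Nat8f1 overlapped between the genotypes there, and Nat8f7 had no counts there to compare. Capitals mark matches, on either strand, to CCAAT (the CCAAT box), GTTAAT (the core of the site of HNF1, a transcription factor of the PT) and CAAAGTNCA (a site of HNF4, another such factor). They span chr6:85809828-85810127, chr6:85820923-85821222, chr6:85832230-85832529, chr6:85708512-85708811, chr6:85869088-85869387 and chr6:85915583-85915882, in the order printed.
Nat8f6: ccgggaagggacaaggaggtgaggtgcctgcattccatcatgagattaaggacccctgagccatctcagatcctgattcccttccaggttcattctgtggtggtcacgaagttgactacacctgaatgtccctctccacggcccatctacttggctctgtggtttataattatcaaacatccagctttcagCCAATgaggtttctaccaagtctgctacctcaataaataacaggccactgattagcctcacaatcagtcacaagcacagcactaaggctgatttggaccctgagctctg
Nat8f5: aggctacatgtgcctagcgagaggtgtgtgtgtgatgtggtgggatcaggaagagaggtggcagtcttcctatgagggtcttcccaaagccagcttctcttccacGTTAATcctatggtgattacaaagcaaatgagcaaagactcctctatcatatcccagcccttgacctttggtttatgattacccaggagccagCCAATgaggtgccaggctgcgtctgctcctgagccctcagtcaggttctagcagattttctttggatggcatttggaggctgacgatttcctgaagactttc
Nat8: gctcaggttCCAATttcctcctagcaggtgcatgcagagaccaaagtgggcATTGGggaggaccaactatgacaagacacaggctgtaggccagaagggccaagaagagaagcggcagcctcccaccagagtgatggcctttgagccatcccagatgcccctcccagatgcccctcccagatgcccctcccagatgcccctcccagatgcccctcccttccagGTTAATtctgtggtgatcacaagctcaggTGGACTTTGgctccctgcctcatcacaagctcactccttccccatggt
Nat8f7: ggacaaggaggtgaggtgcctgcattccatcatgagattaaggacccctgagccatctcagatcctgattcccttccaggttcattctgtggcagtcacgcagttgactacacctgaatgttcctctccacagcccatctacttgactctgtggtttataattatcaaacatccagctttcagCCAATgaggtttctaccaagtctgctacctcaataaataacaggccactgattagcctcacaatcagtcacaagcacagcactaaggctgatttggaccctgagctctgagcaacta
Nat8f2: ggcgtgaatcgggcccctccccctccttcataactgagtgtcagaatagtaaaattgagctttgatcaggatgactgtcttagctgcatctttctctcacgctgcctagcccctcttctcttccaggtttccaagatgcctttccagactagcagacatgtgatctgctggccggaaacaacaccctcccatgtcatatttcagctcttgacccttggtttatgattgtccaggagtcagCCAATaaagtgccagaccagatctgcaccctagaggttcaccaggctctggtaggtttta
Nat8f1: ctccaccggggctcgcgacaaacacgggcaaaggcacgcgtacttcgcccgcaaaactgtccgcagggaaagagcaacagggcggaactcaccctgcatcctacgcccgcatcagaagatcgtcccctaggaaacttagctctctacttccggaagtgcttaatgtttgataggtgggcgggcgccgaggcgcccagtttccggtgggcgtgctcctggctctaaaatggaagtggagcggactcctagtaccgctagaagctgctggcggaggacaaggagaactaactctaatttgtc

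A GTTAAT stood 145 bases before the start of Nat8f5 and 27 bases before that of Nat8 shown here, and 7.10% of all 32851 promoters of the table held one. A CCAAT stood 59 bases before the start of Nat8f6, 52 before that of Nat8f5, 67 before that of Nat8f7 and 10 before that of Nat8f2, and 2 matches lay in the promoter of Nat8, 241 bases before its start and, on the other strand, 199 before, against 37.4% of all promoters with a match. The promoter of Nat8 also held a match to the HNF4 site, on the other strand and 2 bases after the start, as did 1.41% of promoters. Nat8f4, whose PT-like values overlapped between the genotypes, held an HNF4 match as well, 7 bases after 1 of its starts, and a CCAAT 28 bases before it. No match to the 3 motifs was found in the promoters of Nat8f1 and Nat8f3 or at the other starts of Nat8 and Nat8f4. The promoters of Nat8f6 and Nat8f7 were 92.9% identical in alignment and shared a run of 146 bases. Over all assigned cells Nat8f7 gave 1 count and Nat8f6 gave 99, and shared transcript sequence makes both uncertain. The start of Nat8f7 used here lay 703 bases from its nearest annotated start, and that of Nat8 shown here 197. The longest transcript of Nat8f6 begins at chr6:85820954, inside the Nat8f5 window shown and not at the start printed for Nat8f6. Which start the Nat8f6 counts came from was not tested. Nat8f5 and Nat8f6 promoters were 56.2% identical. Such matches describe the letters and not the binding of a factor.

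Transcripts of the family also resemble each other, which bears on how reads can be assigned. Of all 90-base windows in the last 400 bases of annotated transcripts, 82.3% of those of Nat8f7, 52.3% of Nat8f3 and 60.6% of Nat8f6 occurred unchanged in another member. The same share was 0% for Nat8f5, 6.8% for Nat8, 8.7% for Nat8f2, 5.5% for Nat8f4 and 2.7% for Nat8f1. The library counts the 3′ ends of transcripts, so low counts of Nat8f3, Nat8f6 and Nat8f7 are uncertain, while those of the other 5 members rest on mostly unshared sequence. A transcript gives 1 unique molecular identifier (UMI) whatever its length, so levels in CPM (UMIs of a gene per 1000000 UMIs) can be compared between members without a correction for length.

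After the cell and tag filters, 7363 cells could be assigned to the 4 mice (1316 and 1491 cells of the Trim28Δ/Δ mice, 2749 and 1807 of the Trim28f/f mice), with medians of 16386 to 17354 UMIs for each cell of a mouse. Clustering gave 22 classes of cells, of which 15 could be named from marker genes. Mouse 3 stood apart in the collecting duct, where it gave 3 of the 323 collecting duct-like cells and 175 of the 176 cells of the unnamed cluster 15. The PT-like class held 601 cells (187 and 177 against 129 and 108) and was led by Spp2, Fbp1, Gsta2 and Nat8f1. Summed CPM of its 9 PT markers was 9169 and 8589 in Trim28Δ/Δ mice and 9154 and 9371 in Trim28f/f mice. The early PT (ErPT-like) class held 784 cells, led by Osr2, Cthrc1 and Cdh6, and NPC-like cells numbered 343. A further cluster of 393 cells, led by Aadat, was left unnamed and is called the Aadat-led cluster. The 9 PT markers were lower there, with sums of 2190 and 2109 CPM in Trim28Δ/Δ mice and 3389 and 2341 CPM in Trim28f/f mice. The share of PT-like cells was 14.2% and 11.9% in Trim28Δ/Δ mice and 4.69% and 5.98% in Trim28f/f mice. It was 20.3% and 19.8% against 13.3% and 11.3% when the family and the tested lists were left out of the genes used for clustering, and 18.2% and 17.96% against 13.1% and 9.79% when cells were assigned by the share of their highest tag. Trim28 itself was lower in PT-like cells, at 22.2 and 23.3 CPM against 57.4 and 73.4 (log2 difference −1.52 ± 0.17 SE, adjusted p = 0.00976 by the edgeR quasi-likelihood test), and in stroma-like cells it was not called (log2 difference 0.01 ± 0.25, adjusted p = 0.99997). Since the 3′ ends of its transcripts lie outside the deleted part, this does not check the deletion itself.

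Of the 8 members, Nat8f1 was by far the most abundant. It gave 24367 UMIs over all assigned cells, against 3591 of Nat8, 740 of Nat8f2, 371 of Nat8f4, 245 of Nat8f5, 99 of Nat8f6, 15 of Nat8f3 and 1 of Nat8f7. In PT-like cells of the 2 Trim28f/f mice, Nat8f1 stood at 934 and 1008 CPM, Nat8 at 46.5 and 43.3 CPM, and Nat8f2 at 29.97 and 27.1 CPM. These levels of the 3 genes did not overlap between mice, so the order Nat8f1, Nat8, Nat8f2 held in both controls. Nat8f4 (4.57 and 7.66 CPM) and Nat8f5 (4.57 and 1.18 CPM) followed, and their values met in mouse 3. Nat8f6, Nat8f3 and Nat8f7 gave 1, 1 and 0 UMIs in all PT-like cells of the controls, and a count of 0 allows up to 3 UMIs.

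Summed over its members, the family was concentrated in the PT, and Nat8f1 made up most of this sum. In Trim28f/f mice 58.6% and 67.7% of all family UMIs lay in PT-like cells, which were only 4.69% and 5.98% of cells. In Trim28Δ/Δ mice the shares were 84.8% and 78.0%. The members differed. In the controls the PT-like share was 60.8% and 69.2% for Nat8f1, 42.3% and 56.8% for Nat8 and 51.98% and 63.9% for Nat8f2. It was 61.5% and 36.4% for Nat8f5, of 26 and 11 UMIs. For Nat8f4 it was only 17.4% and 32.5%, and for Nat8f6 0% and 16.7%, of 11 and 6 UMIs. In the clustering reported here the Aadat-led cluster held the next level of Nat8f1, at 443 and 264 CPM in the controls. ErPT-like cells, with 79.9 and 70.6 CPM, did not differ beyond the spread of the controls from podocyte-like cells, with 49.7 and 119 CPM. These 3 classes with PT genes stood in the order PT-like, Aadat-led, ErPT-like for this gene in each of the 4 mice, and the mean ratio of PT-like to ErPT-like cells was 12.98 ± 1.84 (SD, n = 2 controls). The size of this ratio rested on the clustering, and it was 31.1 at resolution 1.2 and 32.4 with another centring of the tags. The place of the Aadat-led cluster also moved. With tags assigned by k-means its Nat8f1 read 27.8, 42.4, 45.7 and 45.7 CPM in mice 1 to 4. ErPT-like cells then read 84.6, 58.9, 84.5 and 65.9 CPM. With the family and the tested lists left out of the clustering genes it read 23.5, 43.0, 30.9 and 28.3 CPM against 40.5, 39.7, 26.7 and 45.9 CPM. Mouse 3 had 2 and 3 Aadat-led cells in these settings. As clustered here, the order of the 3 classes was less clear for Nat8. It read 86.3 and 10.8 CPM in the Aadat-led cluster of the controls, on either side of the PT-like values. In their ErPT-like cells it read 5.56 and 8.78 CPM. NPC-like cells had 28.6 to 32.1 CPM of Nat8f1 and 1.57 to 6.12 CPM of Nat8, the latter from 1 to 6 UMIs a mouse.

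**Figure D1:**
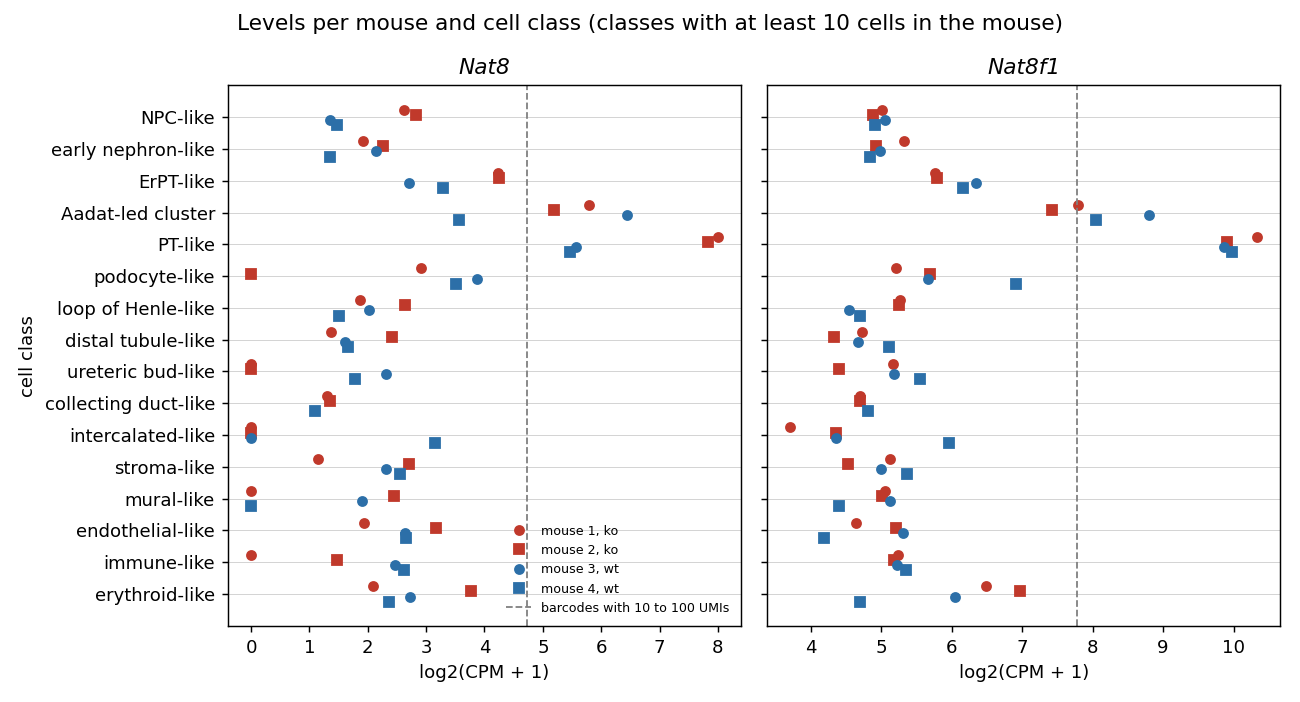
Levels of Nat8 and Nat8f1 on the log2(CPM + 1) scale in each mouse (red, ko; blue, wt) for 16 cell classes with at least 10 cells in that mouse. The dashed line is the level in barcodes with 10 to 100 UMIs; in both panels the PT-like class lies furthest to the right of it, except that mouse 3 has its highest Nat8 value in the Aadat-led cluster.

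Levels in other cells were set against those of free RNA. Barcodes with 10 to 100 UMIs, which hold no cell, carried 218 CPM of Nat8f1 and 25.4 CPM of Nat8. NPC-like cells held 13.7% of that level for Nat8f1 and 8.82% for Nat8, against a median of 15.6% for the 9 PT markers (range 7.10% to 20.6%). Nat8f1 and Nat8 in NPC-like cells thus lay within the range of the PT markers there, and whether these cells express them was not tested. Nat8f4 (68.6%, from 10 UMIs) and Nat8f6 (77.2%, from 3 UMIs) stood above that range on few counts. ErPT-like cells held 32.7% of the free level of Nat8f1 and 37.2% of that of Nat8, against a PT marker median of 88.6%, and PT-like cells 488% and 637% of it. These shares pool the mice, and PT-like cells were mostly of Trim28Δ/Δ and ErPT-like cells mostly of Trim28f/f mice. Within the controls the ErPT-like level was 8.56% and 7.01% of the PT-like level for Nat8f1, below the 16.4% and 18.1% of the summed PT markers in the same mice. For Nat8 it was 11.9% and 20.3%, on either side of them. The 4 mice were in 1 pool and shared 1 source of free RNA. The pool also held 4508 cells with tags that the deposited list assigns to no mouse, so the free RNA can stem from these too. It held no second gene expression library with which barcodes could be shared.

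Across 14 named classes in the controls, the genes whose levels ran most closely with Nat8f1 (Pearson correlation of mean log2(CPM + 1), among 12370 genes) were Fbp1 (0.98), an enzyme of gluconeogenesis, Pcx (0.98), pyruvate carboxylase, and the transporters Slc6a18 (0.97) and Slc22a22 (0.96), with Cyp27b1 (0.96), the vitamin D 1-alpha-hydroxylase. Nat8 ran most closely with Hnf4aos (0.93), Slc22a30 (0.93), AI314278 (0.92), Spp2 (0.92) and Gm15318 (0.91). Nat8f2 ran with Hacl1 (0.95), Pter (0.94), Adra2b (0.94), the glucose transporter Slc5a2 (0.93) and Spp2 (0.93). Among members, Nat8f1 and Nat8f2 had a correlation of 0.92, and Nat8 and Nat8f4 the lowest of those compared, at 0.47. The points share libraries and free RNA and 1 class, PT-like, sets most of the range, so the values describe an order and are not tested.

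In PT-like cells Nat8, Nat8f5 and Nat8f6, which are neighbours on the chromosome, stood higher in both Trim28Δ/Δ mice than in both Trim28f/f mice, while Nat8f1, Nat8f2 and Nat8f4 overlapped between the genotypes. Nat8 read 255 and 227 CPM against 46.5 and 43.3 CPM, from 1297, 1168, 163 and 147 UMIs. The means were 241 ± 19.9 and 44.9 ± 2.26 CPM (SD, n = 2 each). The ratio of the summed UMIs per total was 5.35 with a counting interval of 4.75 to 6.04, and the fitted log2 difference was 2.42 ± 0.14 (SE). Since Nat8 was chosen by this difference, the gap between the genotypes is not weighed against the spread within them.

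Nat8f5 read 19.1 and 15.7 CPM against 4.57 and 1.18 CPM (97, 81, 16 and 4 UMIs), a fitted log2 difference of 2.57 ± 0.44. The 2 controls differed by more than the 2 Trim28Δ/Δ mice in relation to their means. Without mouse 3 the log2 difference was 3.86, and without mouse 4 it was 1.91. The control counts of Nat8f5 lay in few cells, 3.88% of 129 and 0.926% of 108, against 23.5% of 187 and 24.3% of 177. They also moved with the assignment of cells. With the other centring of the tags the controls gave 1 and 2 UMIs (0.422 and 0.568 CPM). Nat8f6 read 5.50 and 6.60 CPM against 0 and 0.295 CPM, from 28, 34, 0 and 1 UMIs. The ratio of the summed UMIs was 41.7, with a counting interval of 7.22 to 1675, which is wide because a single UMI stands for the controls. Since Nat8f6 shares sequence with Nat8f5, Nat8f3 and Nat8f7, how far the assignment of reads bears on its count was not tested. No Nat8f7 UMI was found in PT-like cells, and Nat8f3 gave 1 UMI in mouse 2 and 1 in mouse 4.

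The most abundant member did not separate the genotypes. Nat8f1 read 1291 and 962 CPM against 934 and 1008 CPM (log2 difference 0.22 ± 0.15), and the lower Trim28Δ/Δ mouse lay between the controls. Nat8f2 read 34.0 and 24.3 against 29.97 and 27.1 CPM (0.03 ± 0.21), and Nat8f4 read 6.87 and 6.40 against 4.57 and 7.66 CPM (0.12 ± 0.33). For each of these 3 the genotypes overlapped. Summed over the 8 members, the family stood at 1611 and 1242 CPM against 1019 and 1088 CPM in PT-like cells, and of the difference of the means the larger share was Nat8 (241 against 44.9 CPM) and the more variable share was Nat8f1 (1127 ± 232 against 971 ± 52.5 CPM).

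Of the 8 members 3 were thus higher in both Trim28Δ/Δ mice and 0 lower in both. Among all 11506 genes tested in PT-like cells, 19.9% were higher in both and 20.1% lower in both, and 0.452% (52 genes, 44 of them higher) passed the edgeR threshold of an adjusted p of 0.05. The members had been chosen with these differences known, so nothing is read from their count. The number of genes called in PT-like cells rose to 519 without mouse 3 and to 1830 without mouse 4.

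**Figure D2:**
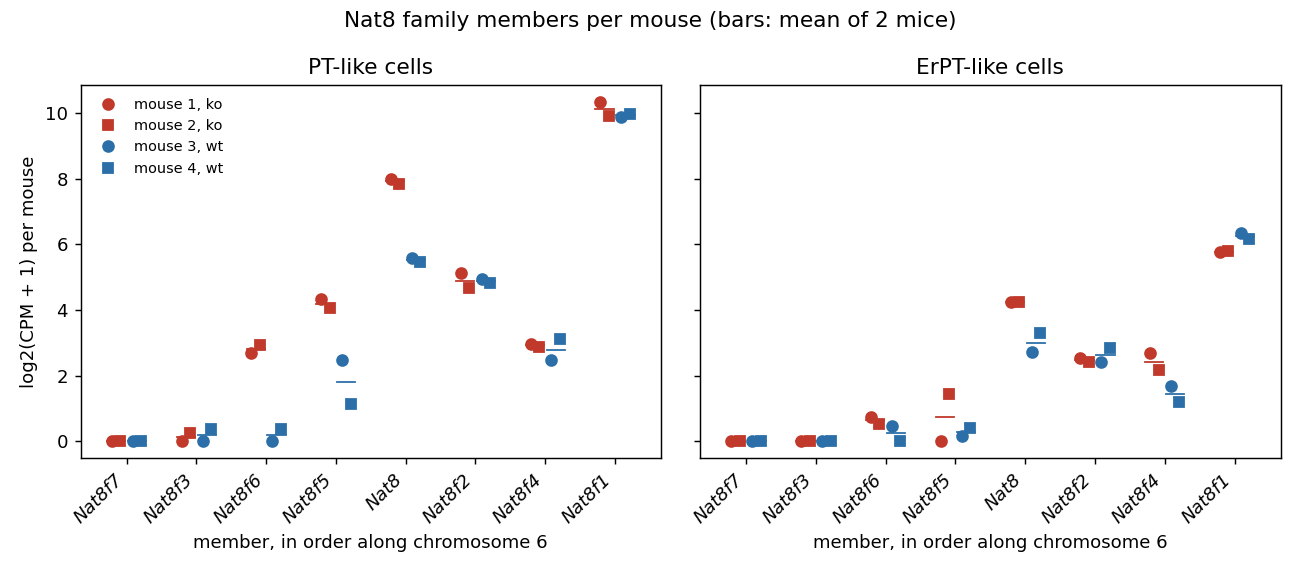
Level of each member on the log2(CPM + 1) scale in PT-like and ErPT-like cells, 1 point for each mouse (red, ko; blue, wt) with the mean of 2 mice as a bar, in order along chromosome 6. In PT-like cells the red and blue points of Nat8f6, Nat8f5 and Nat8 do not overlap, and those of Nat8f2, Nat8f4 and Nat8f1 do; in ErPT-like cells Nat8 is higher in both ko mice.

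The values per cell restate the level of a gene, since the share of cells with a UMI rises with the mean number of UMIs. PT-like cells held a mean of 6.94 and 6.60 Nat8 UMIs in Trim28Δ/Δ mice and of 1.26 and 1.36 in controls, at median depths of 25189, 25585, 22473 and 27888 UMIs. At least 1 Nat8 UMI was found in 77.0% and 83.1% of cells against 36.4% and 43.5%. After each cell was thinned to 6800 UMIs, the shares were 65.8% (95% exact binomial interval 58.5 to 72.5) and 61.6% (54.0 to 68.8) against 15.5% (9.73 to 22.9) and 21.3% (14 to 30.2). The intervals cover the counting of cells in 1 mouse and not the spread between mice. In NPC-like cells, where Nat8 lay within the PT marker range given above, the thinned shares were 7.14% (1 of 14 cells), 2.94%, 2.33% and 1.44% at median depths of 13167 to 16217 UMIs.

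Nat8f1 was found in nearly every PT-like cell of either genotype, at 97.3%, 97.2%, 98.4% and 97.2% after thinning, and in 17.2% to 28.6% of NPC-like cells. Nat8f5 was found in 8.56% and 9.04% of thinned PT-like cells against 1.55% and 0.926%, and Nat8f6 in 3.74% and 6.21% against 0% and 0.926%. Both Nat8 and Nat8f1 were found together in 65.2% and 59.9% of Trim28Δ/Δ cells and in 15.5% and 20.4% of control cells. At this thinned depth 65.9% and 64.8% of control cells and 25.1% and 29.9% of Trim28Δ/Δ cells showed 1 member, shares that depend on the depth.

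**Figure D3:**
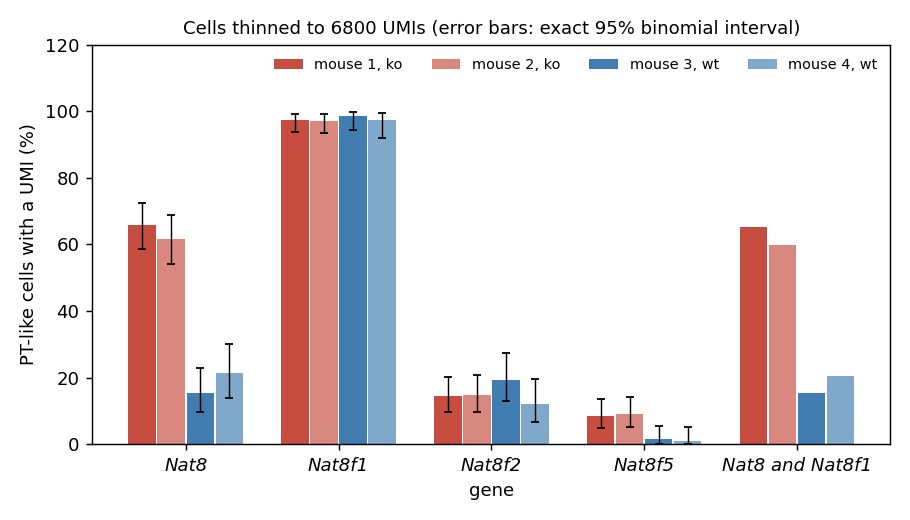
Share of PT-like cells (%) with at least 1 UMI of a member after thinning to 6800 UMIs, by mouse (red shades, ko; blue shades, wt), with exact 95% binomial intervals for single genes, which cover counting error only. The bars for Nat8 stand at 65.8% and 61.6% in the ko mice and at 15.5% and 21.3% in the wt mice, whereas those of Nat8f1 lie between 97.2% and 98.4%.

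Other marker lists in the same PT-like cells are given beside the values of the family. Of genes that mark the straight part of the PT, the summed CPM was 1154 and 959 in Trim28Δ/Δ mice and 645 and 858 in controls, and of genes that mark the convoluted part it was 1196 and 1207 against 1294 and 1582. In the list of 6 straight-part genes, of which 5 were tested, 1 passed the test, Slco1a6, an organic anion transporter, with 49.1 and 48.1 CPM against 11.99 and 13.6 CPM (log2 difference 1.93 ± 0.17, adjusted p = 0.00289, edgeR), where 0.452% of all genes passed. Of these 5 genes 2 had an unadjusted p under 0.05 and DESeq2 called 1. Of all genes tested in PT-like cells, 10.4% had such an unadjusted p and DESeq2 called 0.747%. Of the convoluted-part list, 0 of the 5 genes passed (1 with an unadjusted p under 0.05, and 0 by DESeq2). Summed cycling genes were 98.4 and 128 against 167 and 149 CPM, with 0 of 6 called (2 with an unadjusted p under 0.05, and 0 by DESeq2). Markers of stroma were at 27.5 and 26.2 CPM against 100.2 and 24.8 CPM, and those of immune cells at 44.2 and 23.1 against 20.8 and 31.8 CPM. Those of erythroid cells summed to 2146 and 758 against 2787 and 890 CPM, and of the 3 marker lists the first 2 had no gene at 0 in any mouse. The part of these values in the difference of Nat8, Nat8f5 and Nat8f6 was not tested.

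Genes beside the family on the chromosome were tested to see how far a difference reached. Within 500 kb of the outermost members 22 other genes were listed in the matrix, of which 12 could be tested in PT-like cells. With edgeR 0 of the 12 passed the threshold, 2 had an unadjusted p under 0.05, and DESeq2 called 0, where 10.4% of all genes tested had such an unadjusted p. These 2 were Sfxn5, a mitochondrial carrier, with 5.50 and 5.04 CPM against 2.57 and 2.36 CPM (log2 difference 1.09 ± 0.38, adjusted p = 0.355), and Tprkb, with 126 and 121 CPM against 89.6 and 91.1 CPM (0.45 ± 0.13, adjusted p = 0.234). Tprkb overlaps Nat8f1, the member at the end of the row. On the other side, the nearest tested gene, Alms1, read 5.50 and 6.01 against 5.71 and 7.07 CPM (log2 difference −0.15 ± 0.30, adjusted p = 0.918). The 3 members with higher values thus stood between Nat8f3 and Nat8f7, too low to be compared, and Nat8f2, whose values overlapped. In ErPT-like cells 12 neighbours were tested and in NPC-like cells 10, with 0 called by edgeR, 0 at an unadjusted p under 0.05 and 0 called by DESeq2 in either. In simulated counts the test recovered 34.7% of 2-fold changes in ErPT-like cells and 9.38% in NPC-like cells.

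**Figure D4:**
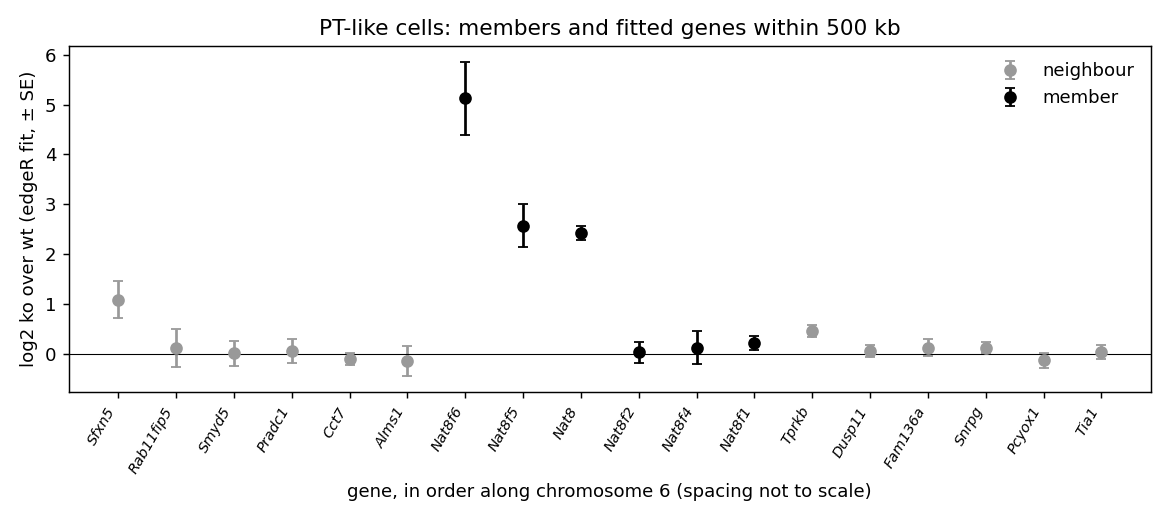
Fitted log2 difference (ko over wt, ± SE) in PT-like cells for members (black) and tested neighbours (grey), in order along chromosome 6 and not to scale. Nat8f6, Nat8f5 and Nat8 stand at 2.42 or more, and the other 3 members and the neighbours lie between −0.15 and 1.09; the value of Nat8f6 depends on the prior count of the fit, since a single UMI was counted in controls.

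ErPT-like cells showed the difference of Nat8 at a lower level. Nat8 read 17.8 and 17.9 CPM against 5.56 and 8.78 CPM (26, 41, 42 and 27 UMIs), a fitted log2 difference of 1.36 ± 0.33, and both Trim28Δ/Δ mice lay above both controls. In thinned cells it was found in 10.3% and 10.7% against 4.32% and 5.03%. The control CPM lay near that of endothelial-like cells of the controls (5.22 and 5.30 CPM). How far free RNA sets the size of the Nat8 difference was not tested. Nat8f4 also stood higher in both Trim28Δ/Δ mice, at 5.48 and 3.49 against 2.25 and 1.30 CPM, from 4 to 17 UMIs a mouse. Of all genes tested in this class, 19.3% were higher in both Trim28Δ/Δ mice and 18% lower in both, and 0.408% passed the edgeR threshold.

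Nat8f1 went the other way in ErPT-like cells, at 53.4 and 54.2 CPM against 79.9 and 70.6 CPM (log2 difference −0.51 ± 0.18). Its sign depended on how cells were clustered and assigned, and the difference was 0.17 when the family and the tested lists were kept out of the genes used for clustering, and 0.32 at a finer clustering. Summed PT markers in the same cells were 960 and 969 CPM against 1505 and 1692 CPM, that is, also lower in both Trim28Δ/Δ mice, and whether this has a part in the lower Nat8f1 was not tested. Nat8f5 gave 0, 4, 1 and 1 UMIs and Nat8f6 1, 1, 3 and 0 UMIs there, too few for a comparison, and Nat8f2 overlapped (4.79 and 4.37 against 4.37 and 6.18 CPM).

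In the Aadat-led cluster the 2 controls disagreed on Nat8, which read 54.4 and 35.6 CPM against 86.3 and 10.8 CPM, so that the genotypes overlapped. Mouse 3 had 20 cells in this cluster, and its cycling genes summed to 889 CPM against 142 to 283 CPM in the other mice. After cells marked by the doublet caller Scrublet were left out, 16 cells of mouse 3 remained with 2 of its 47 Nat8 UMIs, and the values were 50.5 and 36.6 CPM against 5.61 and 7.04 CPM. The fitted log2 difference moved with this from 0.43 ± 0.66 to 2.61. Nat8f1 was lower in both Trim28Δ/Δ mice in this cluster, at 220 and 171 against 443 and 264 CPM (log2 difference −0.85 ± 0.23), and at 193 and 169 against 367 and 242 CPM without the marked cells. Of all genes tested there, 15.9% were lower in both. Genes of the straight part of the PT summed in this cluster to 647 and 735 against 1293 and 699 CPM. Those of the convoluted part summed to 216 and 228 against 358 and 268 CPM.

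Among cycling cells of the nephron lineage (cluster 1, led by Ube2c and Cenpf), Nat8 read 5.98 and 9.49 CPM against 3.43 and 1.73 CPM, from 7 to 32 UMIs a mouse (log2 difference 1.52 ± 0.45), where 16.3% of genes were higher in both Trim28Δ/Δ mice. Over the 4 mice Nat8 stood there at 17.9% of the free level, against a PT marker median of 17.8%, a share that pools the genotypes. NPC-like cells gave 1 and 3 UMIs of Nat8 in Trim28Δ/Δ mice and 2 and 6 in controls. As CPM these were 5.18 and 6.12 against 1.57 and 1.77, from too few UMIs for a comparison. Nat8f1 there overlapped (31.1 and 28.6 against 32.1 and 28.9 CPM). In endothelial-like cells, which do not descend from the Six2-expressing progenitors, Nat8 overlapped at 2.82 and 7.96 against 5.22 and 5.30 CPM (log2 difference −0.07 ± 0.56). Nat8 read lower in both Trim28Δ/Δ mice in the next 3 classes, all from 0 to 12 UMIs a mouse, too few for a comparison. It read 0 and 0 against 3.996 and 2.42 CPM in ureteric bud-like cells and 6.55 and 0 against 13.6 and 10.4 CPM in podocyte-like cells. In immune-like cells it read 0 and 1.77 against 4.56 and 5.16 CPM. Of these classes only the podocyte-like one descends from the Six2-expressing progenitors. The share of all genes lower in both is given below for ureteric bud-like cells only. Nat8f1 overlapped in stroma-like cells (33.7 and 22.0 against 30.8 and 40.1 CPM). Nat8f1 was higher in both Trim28Δ/Δ mice in erythroid-like cells, with 88.3 and 124 against 65.2 and 24.9 CPM, in cluster 14, with 31.4 and 26.6 against 19.3 and 23.0 CPM, and in the loop of Henle-like class, with 37.4 and 37.2 against 22.1 and 24.9 CPM. Of all genes tested in these 3 classes, 51.2%, 20.2% and 20.9% were higher in both. It was lower in both in ureteric bud-like cells (35.0 and 20.1 against 35.1 and 46.0 CPM), as were 12.2% of all genes. Summed over all cells of a mouse, Nat8 read 58.8 and 46.1 CPM against 7.29 and 7.22 CPM. Such sums rise both with the number of PT cells and with the RNA of each, which cannot be told apart in them.

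Genes related to the family by pathway or only by enzyme type were taken from 5 lists with 76 genes in all. The lists were enzymes of mercapturate processing, glutathione transferases, glutathione synthesis and turnover, and partners of acetylation in the endoplasmic reticulum. The last, other N-acetyltransferases, was grouped by enzyme type. In PT-like cells 61 of them could be tested, and edgeR called 0. At an unadjusted p under 0.05 there were 12 (of all genes tested, 10.4%), and DESeq2 called 0 (of all genes, 0.747%). Without mouse 3 edgeR called 4 of them and without mouse 4 it called 14, in fits that called far more genes of every kind. The median log2 difference was 0.05 over the lists and −0.01 over all genes tested.

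Enzymes that act just before NAT8 in the pathway differed widely in level. Ggt1, the gamma-glutamyltransferase that removes glutamate from the conjugate, read 1037 and 1006 CPM against 803 and 816 CPM (log2 difference 0.33 ± 0.10, adjusted p = 0.299, edgeR). Anpep, an aminopeptidase of the brush border, read 534 and 440 against 358 and 451 CPM (0.27 ± 0.15, adjusted p = 0.622), and Dpep1, a dipeptidase, 32.0 and 15.3 against 20.3 and 18.6 CPM (0.28 ± 0.33, adjusted p = 0.840). Among the 9 tested genes of this list 0 were called, 3 had an unadjusted p under 0.05 and DESeq2 called 0, with a median log2 difference of 0.32. Acy3, the deacylase that reverses the step for some conjugates, read 172 and 138 against 140 and 138 CPM (0.16 ± 0.15, adjusted p = 0.789).

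Of the glutathione transferases, which join glutathione to foreign compounds, 19 were tested and 0 called (3 with an unadjusted p under 0.05, and 0 by DESeq2). Gsta2, a leading gene of PT-like cells, read 1027 and 785 CPM against 779 and 751 CPM (log2 difference 0.24 ± 0.15, adjusted p = 0.651, edgeR), and Gstm5 read 570 and 550 against 411 and 384 CPM (0.49 ± 0.12, adjusted p = 0.179). Glutathione synthesis and turnover had 10 genes tested and 0 called (4 with an unadjusted p under 0.05, and 0 by DESeq2). Slc33a1, the acetyl-CoA transporter of the endoplasmic reticulum, overlapped between genotypes at 64.0 and 53.5 against 44.8 and 66.3 CPM (0.08 ± 0.20, adjusted p = 0.932), and 0 of the 5 genes of its list were called (1 with an unadjusted p under 0.05, and 0 by DESeq2). Of the list of other N-acetyltransferases, 18 genes were tested in PT-like cells and 0 called (1 with an unadjusted p under 0.05, and 0 by DESeq2). Glyat, an acyltransferase on this list, read 192 and 196 against 169 and 163 CPM (0.22 ± 0.12, adjusted p = 0.606, edgeR).

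Outside PT-like cells, 3 genes of the 5 lists passed the edgeR test in 1 class each. Sat1, a spermidine acetyltransferase, was higher in NPC-like cells (108.8 and 118.3 against 32.1 and 23.0 CPM, log2 difference 1.96 ± 0.32, adjusted p = 0.00828), where 0.842% of genes were called. It lost the call without mouse 1 (adjusted p = 0.202) and without mouse 2 (adjusted p = 0.452). Slc7a11, which brings in cystine for glutathione synthesis, was higher in cluster 5 (46.5 and 48.4 against 1.91 and 5.55 CPM, log2 difference 3.70 ± 0.36, adjusted p = 6.38e-05), where 0.874% of genes were called. DESeq2 also called it, but cluster 5 was not refitted with a mouse left out or under other assignments or clusterings. Gclm, a subunit of the enzyme that starts glutathione synthesis, was lower in the Aadat-led cluster (398 and 359 against 636 and 649 CPM, log2 difference −0.79 ± 0.12, adjusted p = 0.0383), where 0.307% of genes were called, and lost the call without mouse 1 (adjusted p = 0.196), without mouse 2 (adjusted p = 0.709) and at clustering resolution 1.2 (adjusted p = 0.0569).

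**Figure D5:**
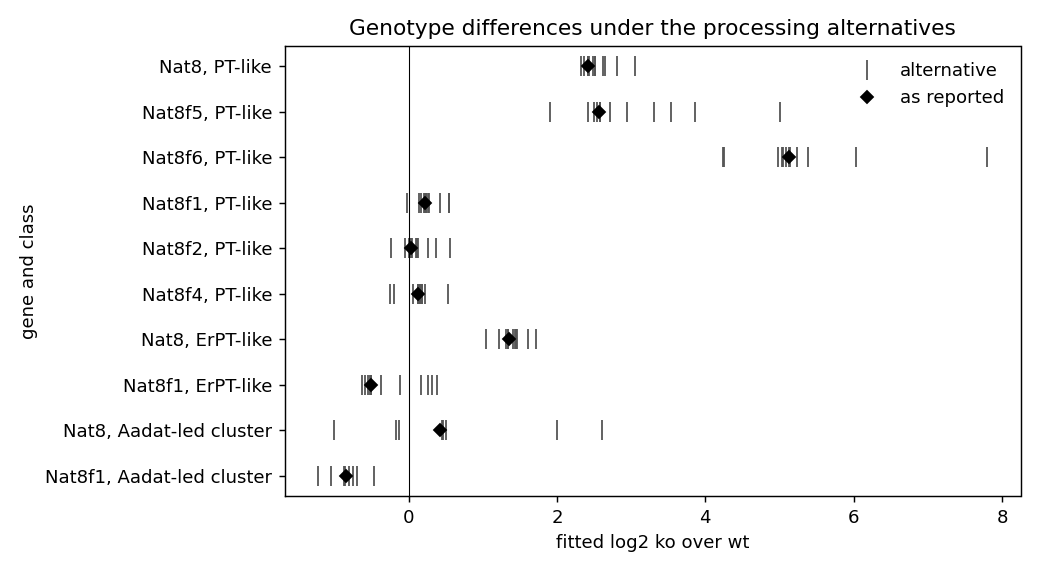
Fitted log2 difference (ko over wt) of members in PT-like, ErPT-like and Aadat-led cells, as reported (diamonds) and under each processing alternative (ticks). Nat8 in PT-like cells ranges from 2.33 to 3.05, and Nat8f1 in ErPT-like cells and Nat8 in the Aadat-led cluster fall on both sides of 0.

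Under the 12 alternatives the fitted differences in PT-like cells ranged from 2.33 to 3.05 for Nat8, 1.91 to 5.01 for Nat8f5 and 4.24 to 7.80 for Nat8f6 on the log2 scale. Since the genes were chosen by these differences, the range describes their size and is no support for their direction. Nat8f6 entered the fit through the Trim28Δ/Δ mice alone, and Nat8f5 would not have entered it on its control counts alone. Nat8 in ErPT-like cells ranged from 1.04 to 1.72. In PT-like cells drawn without the family and the lists among the clustering genes, Nat8 read 208 and 163 CPM against 29.1 and 31.7 CPM.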

How the data were processed

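The authors counted UMIs per gene, tag and barcode with Cell Ranger (6.0.0 by the methods and the submitters' processing notes, 4 by the matrix header) from a 3′ kit, and deposited these raw counts for all 3921239 barcodes, without normalization or a selection of cells. GRCm38 is named in the notes without a role. Seurat 4.0 was the authors' tool.

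From the counts, 21385 barcodes with at least 6891 UMIs were called as cells (order-of-magnitude rule, 24000 expected cells), and 19272 of them, with 200 or more genes detected and no more than 10% of UMIs from mitochondrial genes, were kept. HTODemux (Seurat 5.3.0, quantile 0.99, tags centred over each cell) left 7363 cells on the 4 listed tags. Cells with several tags (4721), no tag (2680) or 1 of 4 tags without a mouse in the deposited list (4508) were set aside. Scrublet marked 3.49% of assigned cells, which were kept and were left out in an alternative. Clusters (SCTransform 0.4.2, 30 components, resolution 0.8) were named from 104 markers of 15 types; of the 3000 variable genes 4 were members. Names can differ from the study's, which used an atlas.

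CPM are UMIs of a gene per 1000000 UMIs of a mouse in a class. Sums per mouse in classes with at least 10 cells in every mouse were tested with edgeR 4.0.16 (quasi-likelihood, filterByExpr, TMM, Benjamini-Hochberg over all genes tested, threshold 0.05). DESeq2 1.42.0, no filter, each mouse left out, k-means and tag-share assignment, 2 other clusterings, cells without Scrublet marks and, chosen after seeing the data, another tag centring were alternatives. SEs come from the F statistic. Intervals cover counting error only. On simulated counts for PT-like cells (11506 genes), 97.9% of 4-fold and 61.2% of 2-fold changes were recovered, against 91.8% and 34.7% for ErPT-like cells (11268 genes) and 72% and 9.38% for NPC-like cells (8077 genes).

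The members and lists were chosen with earlier results of these data known. All 8 members are named; of the lists, every gene past the threshold is named in each of the classes tested, and the other list genes with values were chosen after these were seen. Embryos were separate animals, but all went through 1 pool.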

Additional observations from a re-analysis of the deposited data

Results flagged for a closer look

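Nat8f1 stood higher in both Trim28Δ/Δ mice in some classes and lower in both in others, counting classes with at least 20 UMIs of the gene. On the log2 scale of the mean CPM it was higher by 0.45 in cluster 14, 1.24 in erythroid-like cells and 0.67 in loop of Henle-like cells, and the difference was −0.85 in the Aadat-led cluster, −0.48 in ErPT-like cells and −0.56 in ureteric bud-like cells. After scaling in the fit, the erythroid-like difference was 0.66 ± 0.30 (SE), and 51.2% of all genes tested in that class were higher in both Trim28Δ/Δ mice. Whether these classes differ from each other was not tested. In each of these classes but the Aadat-led cluster the pooled level of Nat8f1 was below that of the barcodes without a cell (218 CPM).

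The 4 tags that the deposited list assigns to no mouse also carried the family. Over all their cells, Nat8 read 13.9 CPM with tag CMO301 and 9.48 CPM with tag CMO304 (5.41 CPM with CMO302 and 6.93 CPM with CMO303), the first 2 above the 7.29 and 7.22 CPM of the controls and below the 58.8 and 46.1 CPM of the Trim28Δ/Δ mice. Nat8f5 read 1.32 CPM with tag CMO301 and 0.646 CPM with tag CMO302 (0.400 CPM with CMO303 and 0.439 CPM with CMO304), against 0.493 and 0.307 CPM in the controls. Nat8f6 read 0.685 CPM with tag CMO301, from 14 UMIs, and 0.199, 0.267 and 0.351 CPM with CMO302, CMO303 and CMO304.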

How the results depend on the processing

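Among differences larger than their SE, signs turned for Nat8f1 in PT-like cells without mouse 1 (-0.017, and -0.017 to 0.42 with 1 mouse left out), for Nat8f1 in ErPT-like cells with assignment by tag share (0.26), the family and lists left out of the clustering genes (0.17), resolution 1.2 (0.32) and the other tag centring (0.39, chosen after seeing the data), and for Nat8f4 in the Aadat-led cluster without mouse 4 (0.90, and −1.04 to 0.90 with 1 mouse left out). Smaller differences also fell on both sides of 0, among them Nat8 in the Aadat-led cluster (-1.0001 to 2.61, 5 of 8 alternatives above 0), Nat8f2 in PT-like cells (-0.24 to 0.56, 10 of 12) and in the Aadat-led cluster (-1.31 to 0.18, 2 of 6), Nat8f4 in PT-like cells (-0.25 to 0.53, 10 of 12) and Nat8f1 in NPC-like cells (-0.42 to 0.01, 1 of 12). The cause was not tested. The number of genes called in PT-like cells (52) was 86 with DESeq2, 13 with no filter, 98 with k-means, 82 with tag share, 92 with the other centring and 31 to 1830 with 1 mouse left out. In ErPT-like cells (46) it was 349 with no filter, 75 with the lists left out and 11 to 1889 with 1 mouse left out. In NPC-like cells (68) it was 25 with DESeq2, 205 with no filter, 23 with tag share, 23 with the other centring and 2 to 192 with 1 mouse left out. A lone mouse is then assumed to vary like the other pair. The PT-like to ErPT-like ratio of Nat8f1 (12.98) was 17.1 with the lists left out, 11.1 with k-means, 31.1 at resolution 1.2, 18.52 with tag share and 32.4 with the other centring (the last 3 chosen after seeing the data) and 3.01 for thinned shares of cells, which cannot pass 100%. The NPC-like share of the free level of Nat8f1 (13.7%) was 15.7% against barcodes with over 100 and up to 500 UMIs. The Aadat-led cluster could not be fitted with k-means, tag share, the lists left out or the other centring, since a mouse had fewer than 10 cells. Low counts and sequence shared with other members limit Nat8f3, Nat8f6 and Nat8f7, and n = 2 limits every difference. No paired analysis was possible because the mice of the groups share no replicate numbers.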

Other observations

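The 4508 cells with tags outside the deposited list enter no comparison. Their Nat8f1 level over all cells was 120 CPM (CMO301), 85.9 CPM (CMO302), 195 CPM (CMO303) and 182 CPM (CMO304), against 102 to 299 CPM in the 4 assigned mice. Nat8f2 read 9.89, 6.41, 3.15 and 3.73 CPM with the same tags, against 3.83 to 7.96 CPM in the assigned mice. Nat8f7 gave 0 UMIs with each of the 4 tags.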
